A study of Sus scrofa with 9 samples.

Results

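Circular RNAs (circRNAs) whose host genes carry the names of centrosome, spindle, chromosome and cell cycle genes were described in MII oocytes, pronuclear (PN) embryos and sperm of the pig. The members were taken by the name of the host gene alone, as the circRNA table gives it, from symbols such as CEP, KIF, CENP, CDK, CCN, CDC, NEK, BUB, SMC, NCAP, STAG, ANAPC, ORC and MCM. The rule found 102 of 3071 circRNAs (3.32%), and these came from 53 of 1727 host genes (3.07%). The rule used no measured value, though it was chosen with earlier results of these data known. A name does not fix a role, and 25 of the 102 circRNAs came from 7 hosts that carry such a name but are known for other work, for example CDC42BPA, a kinase of the actin and myosin cytoskeleton.

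Ribosomal RNA was removed from total RNA, and the remaining RNA was sequenced in 3 libraries for each of the 3 groups, all labelled as without treatment. MII oocytes came from Long White postpubertal gilts at a slaughterhouse, were matured in vitro, and were freed of cumulus cells before RNA was isolated from large pools. PN embryos were pools of such oocytes after in vitro fertilization with semen that the methods assign to Landrace boars. The sperm libraries were made from purified fresh sperm of adult Large White boars, so the sperm libraries and the sires of the embryos differed in breed. The labels do not say that libraries of a group came from separate animals or cultures, and p-values measure only the spread between these libraries.

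The circRNA columns of sperm 1 and sperm 3 were identical in all 3071 circRNAs, 562 of them above 0, and were counted as 1 sample. That left 8 distinct libraries and n = 2 for sperm. Total circRNA counts ranged from 22809 to 24217 in MII oocytes and from 23056 to 26200 in PN embryos, and were 155731 and 167851 in sperm. A count of 3, the limit that a count of 0 allows, was between 0.0115% and 0.0132% of an oocyte or embryo library and 0.00193% and 0.00179% of the sperm libraries. Such limits and the intervals below cover counting error only, since the reads were amplified by PCR without molecular identifiers. The labels were read against marker lists, in which 4 of 11 oocyte markers (KPNA7, NLRP5, ZP2, ZP3) had circRNAs, with 49, 15 and 0 counts in the MII oocytes, 91, 0 and 3 in PN embryos and 0 in both sperm libraries. Of 18 sperm and testis markers, 3 (ODF2, SPAG16, ZPBP) had circRNAs, with 43, 0 and 0 counts in the MII oocytes, 1, 3 and 1 in PN embryos and 376 and 321 in sperm. Of 8 cumulus cell markers, CYP19A1 and VCAN gave 8 counts in MII oocyte 2, 21 in PN embryo 3 and 19 in sperm 1, and 0 of 5 leukocyte markers had a circRNA.

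A circRNA forms when the end of an exon is joined back to an earlier start of an exon of the same transcript, and the closed ring lacks the ends at which exonucleases start. Its abundance is therefore a quantity apart from that of the linear mRNA of its host. The oocyte is arrested at metaphase of the second meiotic division with a spindle that has no centrioles, and in most mammals the sperm brings the centrioles from which the centrosome of the zygote is built. Oocytes and early embryos rely on stored RNA for centrosome assembly, spindle formation, DNA replication and release from arrest, while mature sperm is thought to be transcriptionally silent and keeps RNA from spermatogenesis.

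Members were found in every library. MII oocyte libraries held 18, 28 and 16 members with 1306, 1241 and 1020 counts in all. PN embryo libraries held 24, 23 and 17 members with 1459, 1312 and 1090 counts, and the sperm libraries held 19 and 24 members with 4382 and 4744 counts. The number of members per library thus overlapped between all groups, whereas the sperm libraries held more member counts and also larger circRNA totals.

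As a share of the library, the members took 5.39% (Wilson 95% confidence interval 5.12% to 5.68%), 5.17% (4.90% to 5.46%) and 4.47% (4.21% to 4.75%) of the circRNA counts in MII oocytes. In PN embryos the shares were 6.33% (6.02% to 6.65%), 5.01% (4.75% to 5.28%) and 4.45% (4.20% to 4.71%). In sperm they were 2.81% (2.73% to 2.90%) and 2.83% (2.75% to 2.91%). The group means were 5.01% ± 0.481 (SD, n = 3), 5.26% ± 0.965 (SD, n = 3) and 2.82% ± 0.00883 (SD, n = 2). Shares in MII oocytes and PN embryos overlapped, and both sperm libraries lay under all 6 oocyte and embryo libraries. The order depended on the scale. Relative to the valid reads of each library in place of its circRNA total, the members had 16.1, 15.1 and 12.6 counts per 1000000 reads in MII oocytes, 18.3, 16.4 and 13.7 in PN embryos and 55.7 and 59.0 in sperm. All circRNAs together had 282 to 328 counts per 1000000 reads in oocytes and embryos against 1978 and 2089 in sperm. In these bulk libraries, fewer cells of a type and less RNA per cell cannot be told apart.

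**Figure D1:**
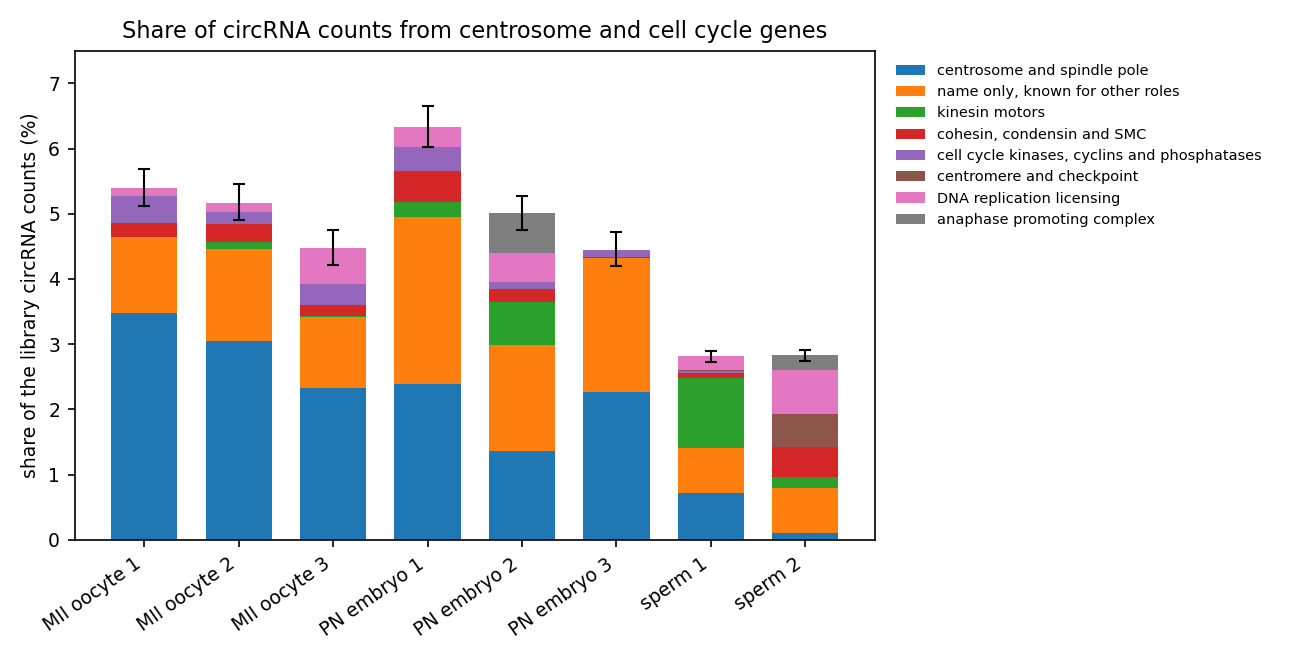
Share of the circRNA counts of each library (%, vertical axis) taken by the 102 circRNAs of centrosome and cell cycle genes, stacked by the role of the host gene, in 3 MII oocyte, 3 PN embryo and 2 distinct sperm libraries. Error bars are Wilson 95% intervals of the whole share. The bars reach 4.45% to 6.33% in oocytes and embryos and 2.81% and 2.83% in sperm.

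A single circRNA carried much of the share. CENPJ encodes a centriole protein (also known as CPAP) that controls the growth of centrioles, and its circRNA415 was the member with most counts in each of the 6 oocyte and embryo libraries. It supplied 48.4%, 52.3% and 49.2% of the member counts in the MII oocyte libraries and 25.4%, 16.6% and 30.7% in those of PN embryos. Without circRNA415 the share of the members was 2.51% ± 0.258 (SD, n = 3) for MII oocytes and 3.99% ± 0.834 (SD, n = 3) for PN embryos, and for sperm it stayed at 2.82%. The MII oocyte libraries then held 2.78%, 2.47% and 2.27% and the PN embryo libraries 4.72%, 4.18% and 3.08%. The sperm libraries held 2.81% and 2.83% in full and 2.14% and 2.29% without the top member of each, so that MII oocytes were below sperm in the former case and overlapped with it in the latter, while PN embryos were above sperm in both.

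Grouped by role, the 26 circRNAs of 15 centrosome and spindle pole genes took 2.95% ± 0.581 (SD, n = 3) in MII oocytes, 2.00% ± 0.566 (SD, n = 3) in PN embryos and 0.410% ± 0.430 (SD, n = 2) in sperm. The sperm mean came mostly from sperm 1, at 0.714% against 0.106% in sperm 2. This order rested on circRNA415 of CENPJ, without which the group took 0.448% ± 0.38 (SD, n = 3), 0.735% ± 0.194 (SD, n = 3) and 0.410% ± 0.430 (SD, n = 2), with overlap of all groups. The 16 circRNAs of 8 kinesin genes took 0.0377% ± 0.0543 (SD, n = 3), 0.297% ± 0.338 (SD, n = 3) and 0.616% ± 0.645 (SD, n = 2), and their spread was as large as their means. The 7 hosts named for the cell cycle but known for other roles took 1.22% ± 0.171 (SD, n = 3), 2.08% ± 0.464 (SD, n = 3) and 0.696% ± 0.00236 (SD, n = 2). Cohesin, condensin and other SMC genes took 0.223% ± 0.0499 (SD, n = 3), 0.231% ± 0.230 (SD, n = 3) and 0.261% ± 0.276 (SD, n = 2), and the sperm mean came from 0.0655% and 0.456%. Cell cycle kinases and cyclins took 0.310% ± 0.116 (SD, n = 3), 0.194% ± 0.151 (SD, n = 3) and 0.0259% ± 0.0206 (SD, n = 2). Per 1000000 valid reads, all circRNAs together were higher in sperm, at 1978 and 2089 against 282 to 328, so a higher value in sperm on this scale is not particular to a role group. The hosts of other roles were highest in sperm, at 13.8 and 14.5 against 3.07 to 7.41 in oocytes and embryos. The centrosome group had 14.1 and 2.22 in sperm, beyond both ends of the 4.44 to 10.4 in oocytes and embryos. Kinesins had 21.2 and 3.35 in sperm against 0 to 2.18, and 13.4 of the 21.2 in sperm 1 came from ciRNA11 of KIFAP3. DNA replication licensing had 4.22 and 14.1 against 0.0126 to 1.53. Centromere and checkpoint genes had 0.203 and 10.5 against 0 to 0.025. Cell cycle kinases and cyclins overlapped, at 0.800 and 0.236 in sperm against 0.338 to 1.24, as did the other role groups. No test was run over these role groups.

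The centrosome group is described first. CENPJ lies on chromosome 11 at 289660 to 357920 of Sscrofa11.1. Its circRNA415 had 632, 649 and 502 counts in the MII oocytes, 371, 218 and 335 in PN embryos, and 0 in both sperm libraries. As shares these were 2.61%, 2.70% and 2.20% in MII oocytes and 1.61%, 0.832% and 1.37% in PN embryos. All 3 oocyte libraries lay above all 3 embryo libraries, and both of these groups lay above sperm. Among all circRNAs of a library it ranked 3, 3 and 3 in MII oocytes and 3, 7 and 4 in PN embryos. Only 31 of the 3071 circRNAs were above 0 in all 6 oocyte and embryo libraries, and 18 of these were at 0 in both sperm libraries, circRNA415 among them. A second CENPJ circle, circRNA414, had 52 counts in MII oocyte 1 and 0 in the other libraries.

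CEP63, a scaffold that helps to start centriole duplication, had a main circle that was higher in PN embryos than in MII oocytes (chromosome 13, 75605622 to 75707087). Its circRNA379 had 18, 0 and 4 counts in the MII oocytes, 129, 65 and 181 in PN embryos, and 0 and 49 in sperm. Each PN embryo library was above each MII oocyte library, and the mean share was 16.8-fold higher in PN embryos. This size varied with MII oocyte 1, without which the log2 fold change fitted by edgeR was 5.80 in place of 4.05. The other CEP63 circles were scarcer, with circRNA1659 at 29, 1 and 0 counts in PN embryos, 0 and 44 in sperm and 0 in MII oocytes, and circRNA1929 at 3 counts in PN embryo 2 alone.

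The remaining centrosome members were each found in few libraries. CEP128, a protein of the subdistal appendages of the mother centriole, had 4 circles, of which circRNA30 had 33 counts in MII oocyte 1 and 68 in PN embryo 2, and the other 3 were found in MII oocytes alone with 16, 9 and 8 counts. CEP152, a partner of CEP63, had 3 circles with 1 count in MII oocyte 2 and 9 and 21 counts in PN embryo 3. ASPM, which focuses spindle poles, had circRNA447 with 21 and 5 counts in MII oocytes 1 and 2. In sperm 1, CEP72 gave circRNA2614 with 620 counts and CEP78 gave circRNA2455 and circRNA2456 with 276 and 189, and all 3 were at 0 in the other 7 distinct libraries. CEP192, which recruits pericentriolar material, had 65 counts in MII oocyte 1 (circRNA44) and 27 in sperm 1 (circRNA2312), from different circles. CEP112 had 1 count in MII oocyte 2 and 85 in sperm 2 of circRNA815. CEP44, CEP83, CEP162, CEP170, CEP295 and CKAP5 were found in oocytes or embryos and not in sperm, with 1 to 53 counts in 1 library for each circle.

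Kinesin motors followed. KIF18A, a kinesin that aligns chromosomes on the spindle, had 4 circles. Its circRNA1553 had 8, 29 and 0 counts in PN embryos, circRNA1554 had 44, 0 and 0, and circRNA1846 had 59 counts in PN embryo 2, and none of these was found in MII oocytes. The first and second of these circles each had 1 count in sperm 2, which is below the 3 counts that a 0 allows, and circRNA726 had 5 counts in MII oocyte 2. KIFAP3, the cargo adaptor of kinesin-2, had the sperm member with most counts, ciRNA11, with 1056 counts in sperm 1 and 0 in sperm 2. That count ranked 15 in sperm 1, against 2 counts in MII oocyte 3 and 1 in PN embryo 2. The prefix ciRNA, which 2 members carry (KIFAP3 ciRNA11 and CEP295 ciRNA30, of 46 such entries in all), commonly stands for circles of intronic sequence.

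Of the 16 kinesin circles, 4 were found in MII oocytes, 7 in PN embryos and 9 in sperm, and 13 of the 16 in 1 library alone. Of all circRNAs, 48.1% were found in MII oocytes, 42.6% in PN embryos and 32.7% in sperm. KIF1B, a transporter of mitochondria and vesicles, had circles of 156 and 82 counts in sperm 1 and of 106 counts in sperm 2, all different. KIF4A, a chromosome-bound kinesin, had 376 counts in sperm 1, and KIF5C, a conventional kinesin heavy chain, had 142 in sperm 2. KIF3A, a motor subunit of kinesin-2, had 42 counts in PN embryo 2 and 1 in MII oocyte 3, from different circles. KIF20B, a kinesin of cytokinesis, had 4 counts in PN embryo 2 and 19 in sperm 2, and KIF16B, a kinesin of endosomes, had 19 in MII oocyte 2.

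Centromere and checkpoint hosts contributed 5 circles, of which 0 were found in MII oocytes, 1 in PN embryos and 4 in sperm, against 48.1%, 42.6% and 32.7% of all circRNAs. BUB1B, which encodes the checkpoint kinase BubR1, had 576 counts in sperm 2. CENPP and CENPF, kinetochore proteins, had 161 and 108 counts in sperm 2, and CENPC, which links the centromere to the kinetochore, had 16 in sperm 1. The circle in PN embryos was another one of CENPP, with 2 counts in PN embryo 2. The anaphase promoting complex, the ubiquitin ligase whose activity ends metaphase, had 3 circles and likewise 0 in MII oocytes. Of its subunits, ANAPC1 had circRNA1829 with 158 counts in PN embryo 2 and circRNA2780 with 18 in sperm 2, and CDC27 had 350 counts in sperm 2. Every circle of both role groups was found in 1 library alone, so nothing is read from their absence in MII oocytes.

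Among cohesins and condensins, SMC1B and STAG3 encode subunits of the cohesin of meiosis. SMC1B (chromosome 5, 3976098 to 4067148) had circRNA647 with 0, 27 and 40 counts in the MII oocytes, 19, 43 and 2 in PN embryos and 1 and 0 in sperm, so oocytes and embryos overlapped. Its other 3 circles were found in oocytes and embryos and not in sperm, with 50 counts in MII oocyte 1 for circRNA67, 46 in PN embryo 1 for circRNA1500, and 3 in MII oocyte 1 and 2 in PN embryo 3 for circRNA66. STAG3 gave circRNA2073 with 491 counts in sperm 2, 1 in PN embryo 3 and 0 elsewhere. STAG1, a cohesin subunit of dividing cells at large, gave circRNA2532 with 101 and 105 counts in sperm and 0 in all 6 oocyte and embryo libraries, and its other circle, circRNA1660, had 41 counts in PN embryo 1. The condensin subunits NCAPD3, NCAPD2 and NCAPG had 170 counts in sperm 2, 24 in MII oocyte 2, and 15 in MII oocyte 2 for the main circle of NCAPG.

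DNA replication licensing was represented by MCM6 and MCM2, subunits of the replicative helicase, and by ORC3, a subunit of the origin recognition complex. MCM6 (chromosome 15, 15923638 to 15978587) gave circRNA485 with 29, 9 and 124 counts in the MII oocytes, 71, 117 and 0 in PN embryos and 332 and 232 in sperm. It was found in 7 of the 8 distinct libraries, and its mean shares of 0.234%, 0.252% and 0.176% lay within the spread of the libraries. Per 1000000 valid reads it had 4.22 and 2.89 counts in sperm, above the 0 to 1.53 of every oocyte and embryo library. MCM2 had 901 counts in sperm 2 and 0 elsewhere, and ORC3 had 25 in MII oocyte 2.

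Of the cell cycle kinases and cyclins, NEK1, a kinase of cilia and the DNA damage response, had circRNA524 with 87, 0 and 74 counts in the MII oocytes, 34, 0 and 2 in PN embryos and 0 in sperm. Its other 3 circles had 14 counts in MII oocyte 1, 24 in PN embryo 1 and 19 in sperm 2. The related kinases NEK5, NEK7 and NEK10 had 27 counts in PN embryo 1 (and 1 in MII oocyte 2), 27 in PN embryo 2, and 33 and 30 in sperm 1. CDK1, the kinase that drives entry into M phase, gave 39 counts in MII oocyte 2 alone. The cyclin circles were those of CCNH, the cyclin partner of CDK7, with 25 counts in PN embryo 3 and of CCNI with 5 in MII oocyte 2. A circRNA was listed for 2 of 28 annotated CCN genes, a share near the 7.29% of all protein-coding genes, and for 0 of 5 PLK, 0 of 4 AURK and 0 of 3 CCNB genes (B-type cyclins). It was listed for 12 of 36 CEP and 8 of 42 KIF genes, and the families were not tested against each other. PCM1 and PCNT, which organise the pericentriolar material, had 0 circRNAs.

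**Figure D2:**
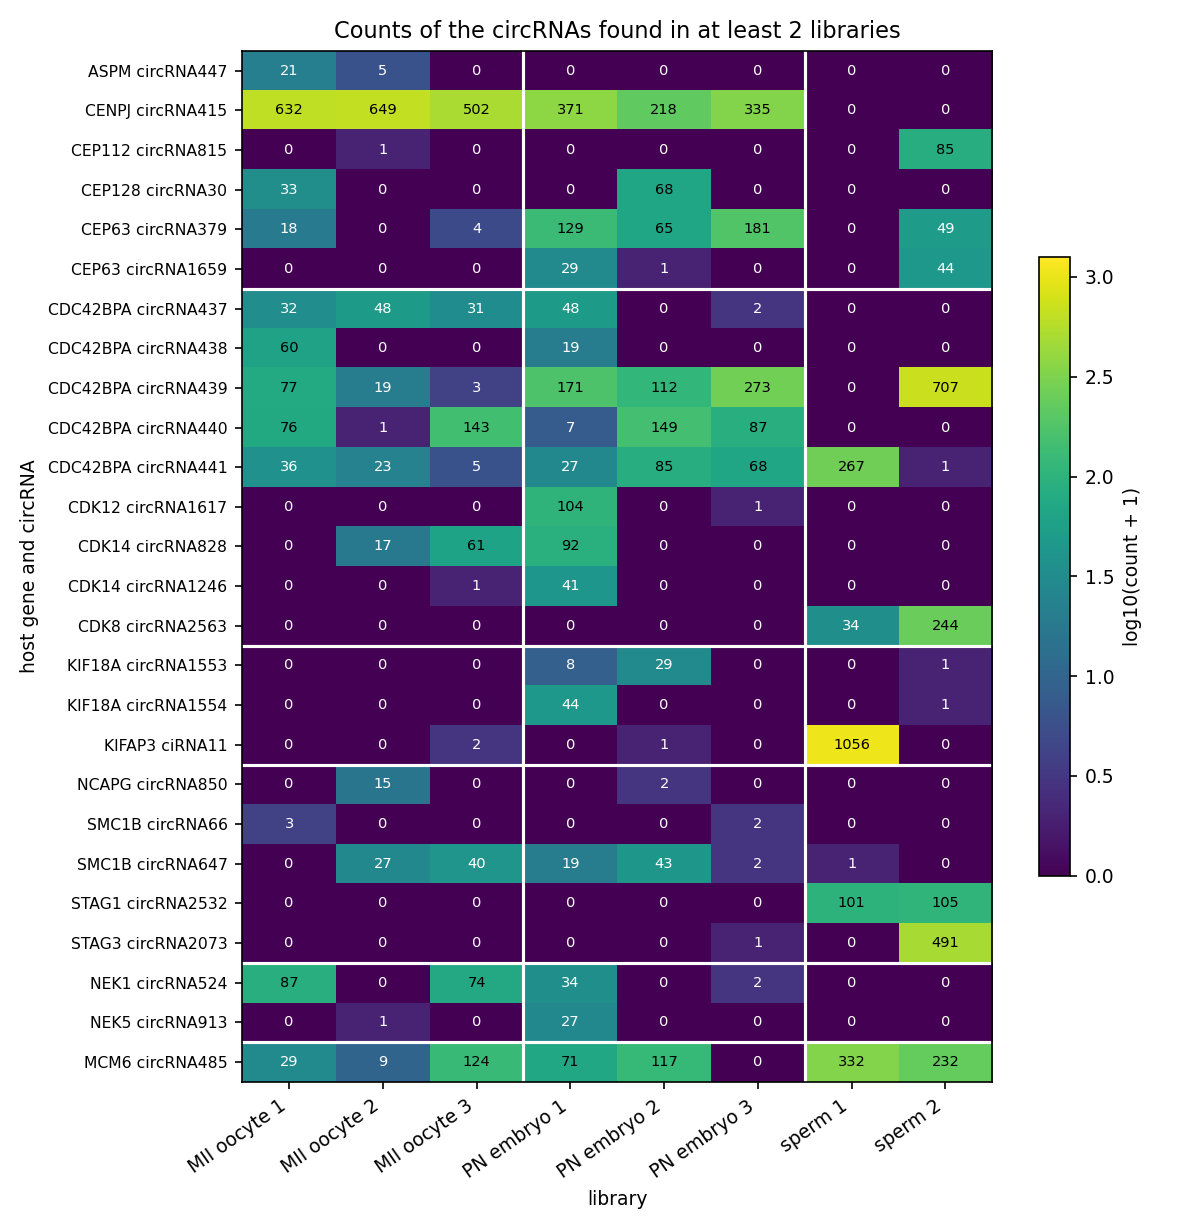
Counts of the 26 members found in at least 2 of the 8 distinct libraries (rows, host gene and circRNA) by library (columns). Color is log10(count + 1), the printed number is the count, and white lines separate groups and roles. CENPJ circRNA415 is filled in all 6 oocyte and embryo columns (218 to 649 counts) and empty in sperm, whereas CDK8 circRNA2563 and STAG1 circRNA2532 are filled in both sperm columns alone.

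The host richest in circles was one of those with other roles. CDC42BPA (chromosome 10, 14649278 to 14940988) gave 8 circRNAs, more than any other member host, and 3 of the 4 members above 0 in all 6 oocyte and embryo libraries. Together its circles took 1.16%, 0.379% and 0.798% of the counts in the MII oocytes, 1.37%, 1.63% and 1.75% in PN embryos and 0.171% and 0.422% in sperm. Each PN embryo library was above each MII oocyte library, by a narrow margin of 1.37% in PN embryo 1 against 1.16% in MII oocyte 1, and sperm 2 overlapped with MII oocytes. How many of all hosts separate in this way was not determined, so nothing is read from this order. It includes the counts of circRNA439, which is described below. Per 1000000 valid reads sperm had 3.39 and 8.81 counts of them, MII oocytes 1.11 to 3.46 and PN embryos 3.98 to 5.41, so that sperm was no longer the lowest group.

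The leading circle of CDC42BPA changed from library to library. Its circRNA439 had 77, 19 and 3 counts in the MII oocytes, 171, 112 and 273 in PN embryos and 0 and 707 in sperm, with a mean share 5.57-fold higher in PN embryos than in MII oocytes and no overlap between these groups. Without MII oocyte 1 its log2 fold change fitted by edgeR was 4.03 in place of 2.47. Its circRNA440 had 76, 1 and 143 counts in the MII oocytes, 7, 149 and 87 in PN embryos and 0 in both sperm libraries. Found in all 8 distinct libraries was circRNA441, with 36, 23 and 5 counts in the MII oocytes, 27, 85 and 68 in PN embryos and 267 and 1 in sperm. Counts of circRNA437 were 32, 48 and 31 in MII oocytes, 48, 0 and 2 in PN embryos and 0 in sperm. Of its other 4 circles, circRNA438 had 60 counts in MII oocyte 1 and 19 in PN embryo 1, and the remaining 3 were found in 1 PN embryo library each, with 45, 81 and 1 counts.

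CDK12 and CDK8, kinases that act on the transcription machinery, had 4 circles each. CDK12 had no circle in MII oocytes, circRNA1617 with 104, 0 and 1 counts in PN embryos, circRNA1616 with 36 in PN embryo 1, circRNA2468 with 677 counts in sperm 1 and circRNA2845 with 80 in sperm 2. As a share, the circles of CDK12 took 0.607% of PN embryo 1 and 0.435% and 0.0477% of the sperm libraries. CDK8 had circRNA2563 with 34 and 244 counts in sperm and 0 in all oocyte and embryo libraries, circRNA2562 and circRNA2564 with 106 and 3 counts in sperm 1, and circRNA906 with 39 counts in MII oocyte 2. By contrast CDK14, a kinase of Wnt signalling, was found in oocytes and embryos and not in sperm, with 0, 17 and 61 counts of circRNA828 in MII oocytes and 92, 0 and 0 in PN embryos. CDK19, the paralog of CDK8, had 76 counts and CDKAL1, a tRNA modifying enzyme, had 68 and 43, all in MII oocyte 2. SMCHD1, a silencing factor of the inactive X chromosome, had a different circle in each group, with 5, 70 and 134 counts in 1 library each.

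**Figure D3:**
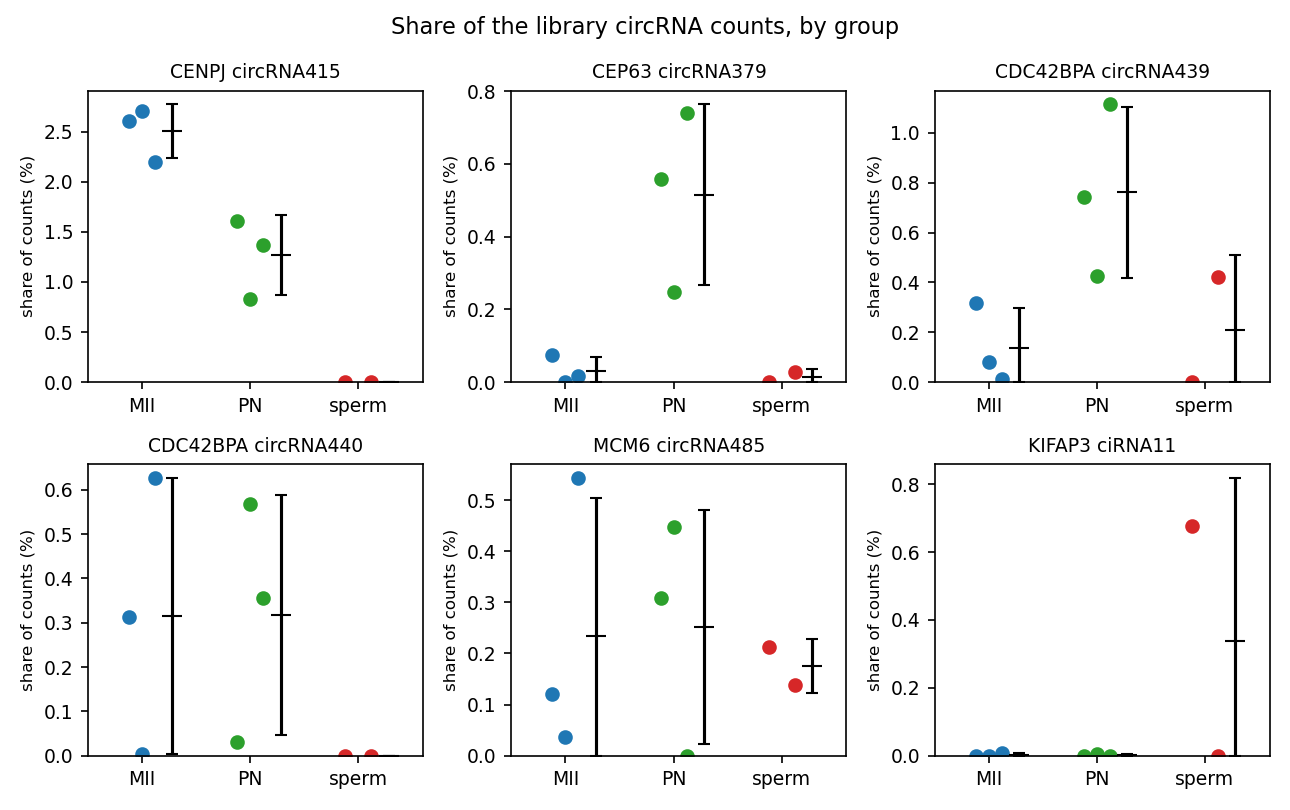
Share of the library circRNA counts (%, vertical axes from 0, each panel on its own scale) of 6 members in MII oocytes, PN embryos and sperm. Points are libraries, and black marks are group means with SD, with lower ends drawn no lower than 0. CENPJ circRNA415 steps down from 2.20% to 2.70% in MII oocytes through 0.832% to 1.61% in PN embryos to 0 in sperm, and KIFAP3 ciRNA11 rests on 1 sperm library.

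Most members were found in 1 library. Of the 102, 76 (74.5%) were above 0 in only 1 of the 8 distinct libraries, near the 71.4% of all circRNAs. Within groups, 34 of the 45 members detected in MII oocytes were in 1 library (75.6%, against 79.0% of all circRNAs), as were 34 of 46 in PN embryos (73.9% against 80.2%) and 35 of 39 in sperm (89.7% against 87.5%). At high counts the share of members found in 1 library of a group varied. In sperm, 26 members had at least 50 counts in a library, and 22 of them (84.6%, against 83.2% of all) had 0 in the other library. In MII oocytes it was 7 of 13 (53.8% against 58.5%) and in PN embryos 6 of 13 (46.2% against 62.5%).

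Members above 0 in every library of a group numbered 6 in MII oocytes, 6 in PN embryos and 4 in sperm. As a share of the members detected this was 13.3%, 13.0% and 10.3%, against 5.01%, 5.66% and 12.5% of all circRNAs detected. The 4 in sperm were circRNA2563 of CDK8, circRNA2532 of STAG1, circRNA485 of MCM6 and circRNA441 of CDC42BPA.

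By group, 28 members were found in sperm alone, 27 in MII oocytes alone and 25 in PN embryos alone. A further 11 were shared by MII oocytes and PN embryos, 6 by all groups (circRNA379 of CEP63, circRNA439 and circRNA441 of CDC42BPA, circRNA485 of MCM6, circRNA647 of SMC1B and ciRNA11 of KIFAP3), 4 by PN embryos and sperm and 1 by MII oocytes and sperm. As shares of the members and of all circRNAs, found in 1 group alone were 27.5% against 24.8% for sperm, 26.5% against 30.7% for MII oocytes and 24.5% against 23.8% for PN embryos. Shared by MII oocytes and PN embryos were 10.8% against 12.8%, by all groups 5.88% against 2.67%, by PN embryos and sperm 3.92% against 3.35% and by MII oocytes and sperm 0.980% against 1.89%. These shares were not tested. The pattern shared by PN embryos and sperm, with 0 counts in MII oocytes, held 4 members of 103 circRNAs, namely circRNA1553 and circRNA1554 of KIF18A, circRNA1659 of CEP63 and circRNA2073 of STAG3. The sperm counts of both KIF18A circles and the PN embryo count of STAG3 were 1. The exchanged pattern, with 0 in PN embryos and presence in MII oocytes and sperm, held 1 of 58, circRNA815 of CEP112, with 1 count in MII oocyte 2 and 85 in sperm 2.

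**Figure D4:**
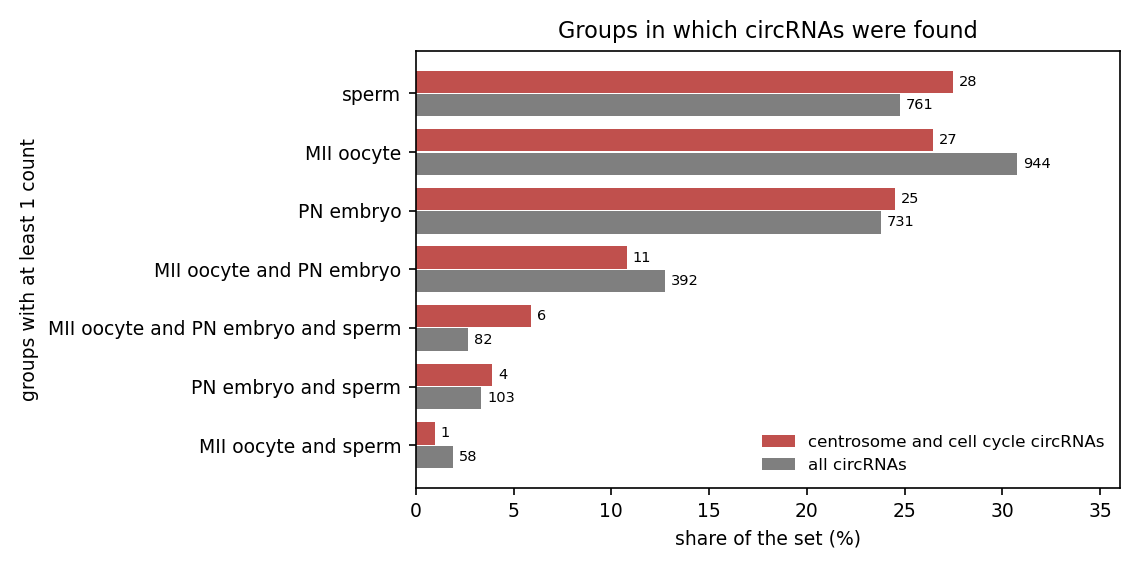
Share of each set (%, horizontal axis) found in each combination of groups, for the 102 members (red) and all 3071 circRNAs (grey), with the number of circRNAs at the end of each bar. A single group name means found in that group alone. Found in 1 group alone were 28, 27 and 25 members (sperm, MII oocytes, PN embryos), and 11 were shared by MII oocytes and PN embryos.

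At the level of the host gene, 24 of the 53 hosts had circles in oocytes or embryos alone, 12 in sperm alone and 17 on both sides. Of these 17, 8 (47.1%) had a circle found on both sides, and the other 9 had different circles, namely ANAPC1, CDK12, CDK8, CENPP, CEP192, KIF20B, NEK1, SMCHD1 and STAG1. Over all host genes, 224 of 371 with circles on both sides (60.4%) shared at least 1. More than 1 circle was listed for 26 of the 53 hosts (49.1%, against 36.4% of all hosts).

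The members' hosts were long genes, a property the rule did not use. In the RefSeq annotation of Sscrofa11.1, 290 genes met the name rule and 53 of them (18.3%) had a circRNA, against 1506 of 20645 protein-coding genes (7.29%). The median length was 104 kb in the 53 hosts and 27.5 kb in the named genes with none listed, and it was 102 kb in all circRNA hosts and 19.2 kb in all protein-coding genes. Of the named genes longer than 100 kb, 28 of 55 (50.9%) were hosts, and of the shorter ones 25 of 235 (10.6%). Host lengths ran from 18.4 kb in CEP44 to 659 kb in CDKAL1. These are descriptions across genes, which are not replicates.

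**Figure D5:**
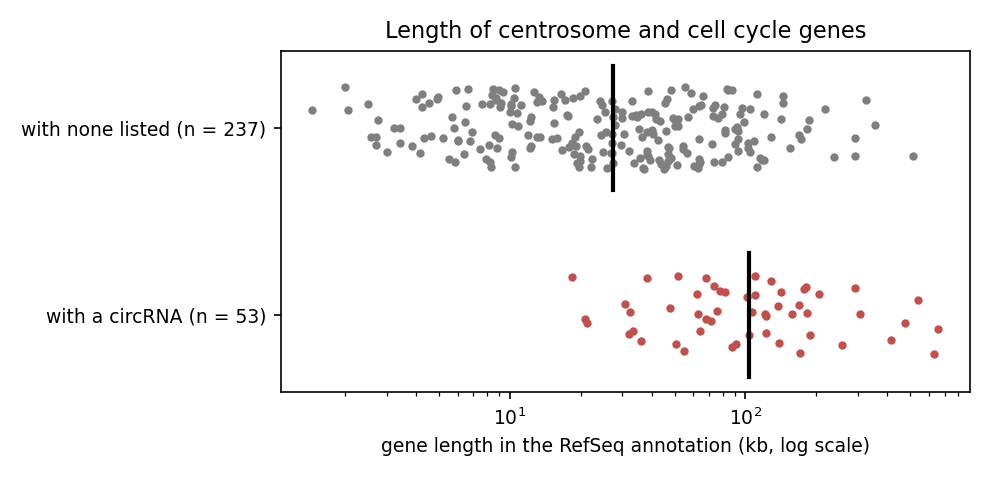
Length of the 290 annotated genes that meet the name rule (kb, log scale, horizontal axis), for the 53 with a circRNA in the table and the 237 with none. Each point is a gene, spread vertically for legibility, and black lines are medians, 104 kb and 27.5 kb.

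The comparison of PN embryos with MII oocytes asked which circRNAs differ after fertilization. Counts were tested with edgeR over all circRNAs above 0 in at least 3 of the 6 libraries, and a circRNA was called when its adjusted p (Benjamini-Hochberg) was under 0.05 and its log2 fold change was 1 or more in either direction. The call was made for 0 of 10 members tested, and for 0 of 270 circRNAs in all (0%). At an unadjusted p under 0.05 edgeR gave 0 members and 15 circRNAs, and DESeq2 called 0 members and 2 circRNAs after adjustment. Groups did not overlap for 3 of the 10 members. Higher in every PN embryo library were circRNA379 of CEP63 and circRNA439 of CDC42BPA, 2 of 10 against 5.19% of all circRNAs tested, and lower was circRNA415 of CENPJ, 1 of 10 against 6.67%. Members passed this filter by being found in several libraries, so these counts do not stand for all 102.

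The sizes behind these orders were uncertain. The log2 fold change of CENPJ circRNA415 was -0.98 ± 0.50 (SE), a mean share 1.97-fold lower in PN embryos, with an edgeR p of 0.0511 and a Benjamini-Hochberg adjusted p of 0.776. For CEP63 circRNA379 it was 4.05 ± 2.20 (SE, edgeR adjusted p = 0.776) and for CDC42BPA circRNA439 2.47 ± 1.53 (SE, edgeR adjusted p = 0.776). The other 7 members had log2 fold changes between -2.13 (NEK1 circRNA524) and 1.43 (CDC42BPA circRNA441), each with an edgeR adjusted p of 0.998. The median log2 fold change was 0.06 over the 10 members and -0.08 over the 270 circRNAs. None of these differences was larger than the spread between libraries by this test, which does not show that the levels were equal.

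Sperm was compared with each of the other groups, and both comparisons use the same 2 sperm libraries. CircRNAs above 0 in at least 2 libraries were tested. Against MII oocytes, CENPJ circRNA415 was the only one of 15 members called by edgeR, and it was lower in sperm, while 19 of 486 circRNAs were called (3.91%), 11 of them lower (2.26%) and 8 higher (1.65%). The split changed with the scaling, to 11 lower and 80 higher with valid reads as the library size and to 10 lower and 0 higher with TMM factors. At 0 in sperm, circRNA415 passed the filter only through the group in which it was high, here and against PN embryos, so its test is a description of these libraries. With 0 counts in sperm and the floor of 3 counts per library, its mean share was at least 1349-fold lower, with an edgeR adjusted p of 0.00254 (Benjamini-Hochberg). Without MII oocyte replicate 2 this adjusted p was 0.0856 and 0 of the 486 circRNAs were called after adjustment, 124 having an unadjusted edgeR p under 0.05. The call was also lost with the replicate block (edgeR adjusted p = 0.775). In the main fit, at an unadjusted p under 0.05, edgeR gave 5 of the 15 members and 169 of the 486 circRNAs.

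Against PN embryos, CENPJ circRNA415 was again the only call, of 17 members tested, against 7 of 453 circRNAs (1.55%), all of them lower in sperm. With TMM factors the split was 11 lower and 6 higher, and with valid reads edgeR called 0 circRNAs after adjustment and 164 at an unadjusted p under 0.05. Its mean share was at least 684-fold lower in sperm, with an edgeR adjusted p of 0.0302. The call was lost without PN embryo replicate 1 (adjusted p = 0.107) and without PN embryo replicate 3 (adjusted p = 0.155). It was also lost with valid reads as the library size (adjusted p = 0.0527) and with the replicate block (adjusted p = 0.802), all by edgeR. Counts of circRNA415 were 218 or more in each PN embryo library and 0 in each sperm library. At an unadjusted p under 0.05 edgeR gave 2 of the 17 members and 117 of the 453 circRNAs.

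A circle at 0 in both sperm libraries passed the filter through the group where it was present, and a circle at 0 in oocytes or embryos passed through sperm, so separation of the groups follows in part from the filter and nothing is read from its counts, nor from calls of such circles. Lower in both sperm libraries than in all MII oocyte libraries were 3 of 15 members, among 11.9% of all circRNAs tested, and lower than in all PN embryo libraries were 5 of 17, among 13.2%. Against MII oocytes these were circRNA415 of CENPJ and circRNA437 and circRNA440 of CDC42BPA. Against PN embryos they were circRNA415 of CENPJ, circRNA439 and circRNA440 of CDC42BPA, circRNA379 of CEP63 and circRNA647 of SMC1B. The margin of circRNA439 was narrow, with 0.421% in sperm 2 against 0.427% in PN embryo 2. Per 1000000 valid reads it was lost, with 8.80 counts in sperm 2 against 1.40 to 3.44 in PN embryos, while the other members named kept their order on that scale, which was applied to single members after seeing the data. For circRNA440 of CDC42BPA, at 0 in sperm, the mean share was at least 170-fold below MII oocytes and at least 171-fold below PN embryos, with edgeR adjusted p-values of 0.105 and 0.128. These bounds rest on uneven libraries, from 0.00417% to 0.627% in MII oocytes and from 0.0304% to 0.569% in PN embryos. This circle was called by DESeq2, which called 54.5% and 55.8% of all circRNAs tested, and by edgeR with the filter at 3 libraries, which called 56.9% and 30.8%.

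Higher in both sperm libraries were 2 of 15 members against MII oocytes, where 23% of all circRNAs tested were, and 2 of 17 against PN embryos, where 23.4% were. In both comparisons these were circRNA2563 of CDK8 and circRNA2532 of STAG1, which the filter admitted through sperm alone. Per valid read circRNA485 of MCM6 joined them in both comparisons, making 3 of 15 members among 24.9% of all circRNAs tested and 3 of 17 among 25.8%. CircRNA2563 of CDK8 and circRNA2532 of STAG1 were at 0 in all oocyte and embryo libraries, so the bounds on shares are small. They were at least 6.59-fold and 6.83-fold for CDK8, and at least 5.02-fold and 5.21-fold for STAG1, against MII oocytes and PN embryos in turn. The CDK8 bounds rested mostly on sperm 2, at 0.145% against 0.0218% in sperm 1. The log2 fold change of CDK8 circRNA2563 against MII oocytes fitted by edgeR was 9.05, and 6.64 without sperm 2. The edgeR adjusted p was 0.105 for both circles against MII oocytes and 0.128 for both against PN embryos. With valid reads as the library size both were called higher in sperm than in MII oocytes, with edgeR adjusted p-values of 0.0413 for CDK8 and 0.0497 for STAG1, and neither was called against PN embryos (0.0863 and 0.0917). On that scale 16.5% of all circRNAs tested were called higher in sperm than in MII oocytes. KIFAP3 ciRNA11, with 1056 counts in 1 sperm library and 0 in the other, overlapped with the oocyte and embryo libraries and had edgeR adjusted p-values of 0.105 and 0.128. The median log2 fold change against MII oocytes was -1.06 over the members tested and -6.07 over all circRNAs tested, and against PN embryos it was -5.13 and -3.43. Fitted values of circles at 0 in a group enter these medians, which are a description and not a bound.

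Genes of the same processes that the name rule leaves out were described beside the members. Of 105 such genes listed, 29 had circRNAs, 56 in all, of which 31 were found in MII oocytes, 23 in PN embryos and 10 in sperm. They took 2.12%, 1.20% and 0.868% of the counts in the MII oocytes, 1.05%, 0.672% and 1.93% in PN embryos and 1.24% and 0.0316% in sperm, with overlap of all groups. CIT, the citron kinase of cytokinesis, and PDS5B, a regulator of cohesin, gave the most, with 5 circles each, and circRNA528 of CIT had 128, 0 and 4 counts in the MII oocytes, 0, 49 and 12 in PN embryos and 0 in sperm. SASS6 and STIL, partners of CENPJ in building centrioles, had 38 counts in MII oocyte 2, 30 in PN embryo 1 and 257 in sperm 1. By edgeR with Benjamini-Hochberg adjustment, 0 of 2 circles of this list were called between PN embryos and MII oocytes, 0 of 4 between sperm and MII oocytes and 0 of 3 between sperm and PN embryos. At an unadjusted p under 0.05 edgeR gave 0, 2 and 0 of them, and 5.56%, 34.8% and 25.8% of all circRNAs tested.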

How the data were processed

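The authors deposited whole-number counts per circRNA with the name of its host gene, without normalization. The submitters' processing notes name cutadapt 1.9, HISAT2 2.0.4, TopHat2 2.0.4, StringTie 1.3.4d, edgeR and the build Sscrofa11.1, and the program that called circRNAs is not given in the sources used here. Of the 9 count columns 0 were left unused, and the identical sperm columns 1 and 3 were counted as 1 sample. The mRNA and lncRNA tables are not used here. Shares are counts divided by the circRNA total of the library, with Wilson 95% intervals (Python 3.11.15, numpy 2.4.6, pandas 2.3.3, scipy 1.17.1). All 53 hosts matched the RefSeq annotation of Sscrofa11.1 by symbol.

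All circRNAs above 0 in as many libraries as the smaller group holds (3, or 2 with sperm) entered quasi-likelihood tests of edgeR 4.0.16 (glmQLFit and glmQLFTest, R 4.3.3), with the circRNA total as library size, and adjusted over all circRNAs tested. Each fit used the libraries of the groups compared. The procedure was tested on simulated data. Alternatives were TMM factors, valid reads as library size, other filters, DESeq2 1.42.0, 1 fit of all groups, a replicate block, the identical columns as 2 samples, and each library left out.

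The members, the role groups and the gene lists were chosen with earlier results of these data known. Named are the 10 members with the highest mean share in each group, members above 0 in at least 2 libraries of at least 2 groups, members called, members at 0 in MII oocytes but found in PN embryos and sperm, and hosts with at least 3 circles. The other members named stand for their role group and were chosen after their values were seen.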

Additional observations from a re-analysis of the deposited data

How the results depend on the processing

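Between PN embryos and MII oocytes no member was called under any alternative run. Against MII oocytes, where 1 of 15 members and 19 of 486 circRNAs were called in sperm, valid reads as library size gave 3 of 15 (2 higher, 1 lower) and 91 of 486, the filter at 3 libraries 3 of 8 and 70 circRNAs (56.9% of those tested), DESeq2 6 of 15 and 265 of 486, the identical sperm columns as 2 samples 6 of 11 and 137 of 234, and leaving out a library 0 to 1 member and 0 to 25 circRNAs. Against PN embryos, where 1 of 17 members and 7 of 453 circRNAs were called, valid reads gave 0 of 17 and 0 of 453, the filter at 3 libraries 2 of 9 and 44 of 143, DESeq2 8 of 17 and 253 of 453, the identical columns as 2 samples 6 of 12 and 134 of 255, and leaving out a library 0 to 3 members and 0 to 19 circRNAs (0 members and 1 or 0 circRNAs without PN embryo replicate 1 or 3, and 3 of 17 members, 17.6%, and 16 circRNAs, 3.53%, without sperm replicate 2). TMM factors called 10 and 17 circRNAs. The causes were not tested.

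The replicate block gave 0 calls in each comparison, over the members and over all 270, 486 and 453 circRNAs (3, 12 and 3 at an unadjusted p under 0.05), with edgeR adjusted p-values of 0.775 and 0.802 for CENPJ circRNA415. The log2 fold changes of circRNA415 stayed about as large while their SE rose. Against MII oocytes it was -14.0 ± 6.46 (SE) with the block and -13.9 ± 1.38 without. Against PN embryos it was -12.8 ± 6.55 (SE) with the block and -13.0 ± 1.54 without. Same-numbered PN embryo and MII oocyte libraries correlated in their deviations from the group means at -0.083, 0.113 and -0.045. These low values do not show a pairing by number, and so few libraries cannot exclude one.

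Members detected were 26 (without replicate 2) to 39 with an MII oocyte library left out, 32 to 38 with a PN embryo library left out and 19 to 24 with a sperm library left out. Their share without the hosts of other roles was 3.79% in MII oocytes, 3.18% in PN embryos and 2.12% in sperm. It was 2.51% and 3.99% in MII oocytes and PN embryos without CENPJ circRNA415 (chosen after seeing the data), which left 0.448% and 0.735% for the centrosome group, and the members took 2.48% in sperm without ciRNA entries. Of 113 alternative values of single fold changes, 103 kept their direction and call, 4 gained a call, 6 lost one and 0 reversed. These cover only some of the members named above, most of them not called in the main fits. All 6 lost calls were those of CENPJ circRNA415, the only member called there. Its call was lost in 2 of 10 settings against MII oocytes and in 4 of 10 against PN embryos. Many of these circles were at 0 in a whole group, so their kept direction says little. Depth limits what a 0 shows, since 3 counts could go unseen in any library.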
